A study of Homo sapiens with 12 samples.

Results

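NKG2D ligands are cell surface proteins that mark stressed, infected or transformed cells for natural killer cells and some T cells. The 8 human genes that encode them, MICA, MICB, ULBP1, ULBP2, ULBP3, RAET1E, RAET1G and RAET1L, were followed here out of 57820 gene identifiers in the count tables. They were taken as a known family, and the family was chosen by the large fall of RAET1L in Kyse410 cells with the UHRF1 hairpin. The response in Kyse410, and the difference between the lines that contains it, are therefore given as descriptions with no p-value. The response in TE10 was not used in that choice, although the choice was made with earlier results of these data known. TE10 and Kyse410 are established human lines of oesophageal squamous cell carcinoma. Each line was stably infected with a short hairpin RNA against UHRF1 (shUHRF1) or with a scramble hairpin, so all 4 groups carry a hairpin construct, and polyadenylated RNA was sequenced from 3 libraries per group. The labels do not give the number of hairpin sequences, the time after infection, or whether the cells were clones or pools, nor do they say that the libraries came from separate cultures. A p-value here thus weighs a difference only against the scatter of 3 libraries, which could be technical scatter.

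NKG2D, encoded by KLRK1, is an activating receptor that binds a set of proteins distantly related to MHC class I. MICA and MICB are transmembrane proteins encoded in the MHC, whereas the ULBP and RAET1 genes form a separate cluster on the long arm of the same chromosome and mostly encode proteins held in the membrane by a lipid anchor. RAET1E, RAET1G and RAET1L are also known as ULBP4, ULBP5 and ULBP6. The ligands are scarce on most healthy cells, are induced by DNA damage, heat shock and oncogenic signals, and can be shed from the surface by metalloproteinases. UHRF1 binds hemimethylated CpG sites at replication forks and recruits the maintenance methyltransferase DNMT1. Only RNA was measured here, so surface protein and shed protein were not analysed.

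The sequences upstream of 4 of the genes are shown as the local context of the genes the comparisons turn on, with CpG sites marked because UHRF1 recognises them. Each run is the 250 bases before the annotated start, 5′ to 3′ on the gene's own strand, from RefSeq on GRCh38.p14, with every CG in capitals. They are RAET1L, the gene that fell most in Kyse410 (chr6:150025533-150025782, minus strand), ULBP2, which shares more sequence with RAET1L than any other ligand (chr6:149941764-149942013, plus strand), ULBP1, which separates the lines (chr6:149963693-149963942, plus strand), and RAET1E at the first of its 3 listed starts (chr6:149898114-149898363, minus strand).
RAET1L: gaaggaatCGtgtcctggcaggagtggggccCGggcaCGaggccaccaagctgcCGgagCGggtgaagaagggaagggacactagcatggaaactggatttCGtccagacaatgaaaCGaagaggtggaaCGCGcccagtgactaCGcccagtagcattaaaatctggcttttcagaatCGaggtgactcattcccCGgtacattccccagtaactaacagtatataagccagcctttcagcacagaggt
ULBP2: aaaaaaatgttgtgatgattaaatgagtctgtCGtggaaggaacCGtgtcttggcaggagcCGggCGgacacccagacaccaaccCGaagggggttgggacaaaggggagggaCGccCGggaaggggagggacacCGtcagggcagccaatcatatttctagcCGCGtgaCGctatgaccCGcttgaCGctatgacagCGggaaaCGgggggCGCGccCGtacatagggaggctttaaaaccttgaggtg
ULBP1: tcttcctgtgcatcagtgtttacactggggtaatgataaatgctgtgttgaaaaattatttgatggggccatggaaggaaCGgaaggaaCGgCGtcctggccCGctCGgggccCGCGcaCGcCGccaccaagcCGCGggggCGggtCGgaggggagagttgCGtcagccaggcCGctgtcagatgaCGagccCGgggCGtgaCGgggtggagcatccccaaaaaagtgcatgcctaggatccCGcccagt
RAET1E: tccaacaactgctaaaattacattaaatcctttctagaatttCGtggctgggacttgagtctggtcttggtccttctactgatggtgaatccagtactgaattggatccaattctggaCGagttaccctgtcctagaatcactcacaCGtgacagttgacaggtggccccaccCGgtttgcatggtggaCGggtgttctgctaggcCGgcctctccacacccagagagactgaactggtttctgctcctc
The RAET1L run held 12 CG pairs, the ULBP2 run 18, the ULBP1 run 20 and the RAET1E run 6. All 8 genes matched an entry in the promoter table. The corresponding windows held 17 CG pairs at MICA, 18 at MICB, 22 at ULBP3 and 8 at RAET1G. Over all 35116 promoters in the table the median was 11, with quartiles of 3 and 23, so the ligand windows spanned much of the ordinary range. The letters TGACTCA or TGAGTCA, the core recognised by AP-1 factors, were in 4.20% of all windows. Among the ligands they were found at RAET1L, 66 bases before the start, and at the second RAET1E start, 79 bases before it. The GC box letters GGGCGG or CCGCCC were in 42.64% of all windows. They occurred 6 times at ULBP3, 2 times at ULBP1, once each at MICA, MICB, ULBP2 and RAET1G, and in none of the RAET1L and RAET1E windows. The CCAAT box letters CCAAT or ATTGG were in 32.01% of all windows, and at MICA, MICB, ULBP2, RAET1G and 2 of the 3 RAET1E starts. TGACGTCA, the cyclic AMP response element, was in 1.65% of all windows and in none of the ligand windows. All 4 motifs were searched on both strands, no match in a ligand window overlapped another, and a match is one of letters only.

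The libraries held 7857662 to 12005229 reads on genes. UHRF1 RNA was left at 48.1% of the scramble level in TE10 and at 42.9% in Kyse410, lower in both lines as labelled. The squamous and epithelial label was checked on 10 markers, of which 9 were abundant enough to test: TP63 stood at 101 CPM (reads per 1000000 of the scaled library total) in TE10 and 97.5 CPM in Kyse410 scramble libraries, and EPCAM at 132 and 146 CPM. KRT5 was high in TE10 (67.4 CPM) and low in Kyse410 (1.14 CPM) scramble libraries. KRT14 (55.2 and 4.39 CPM) and KRT6A (372 and 12.4 CPM) were also far lower in Kyse410, whereas KRT17 stood at 67.8 and 81.0 CPM. SOX2 was too low to test. All 14 lymphocyte markers, the receptor gene KLRK1 included, had at most 3 reads in any library and 4 of them, including KLRK1, had none. The values below thus come from cultures with almost no read from the cells that carry the receptor. Of the other cell type markers, COL1A2, COL3A1, DCN and LUM had at most 2 reads in a library and VWF at most 6. Other markers were not near 0. COL1A1, a fibroblast collagen gene, had 333 to 1786 reads over the 12 libraries, PDGFRB 4 to 70 and the myeloid receptor gene CSF1R 44 to 108. CDH5, an endothelial cadherin gene, had 241 to 304 reads in Kyse410 scramble and 836 to 1145 in Kyse410 shUHRF1 libraries. The part of these genes' cell types in the results was not tested. Mitochondrial reads took 6.0% ± 0.05 of gene reads in TE10 scramble, 5.23% ± 0.434 in TE10 shUHRF1, 2.38% ± 0.068 in Kyse410 scramble and 3.90% ± 0.106 in Kyse410 shUHRF1 (SD, n = 3). Without the mitochondrial genes every ligand kept its side of the threshold in each of the 4 comparisons. A lower level in such bulk RNA can mean fewer expressing cells or less RNA per cell, which cannot be told apart.

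In TE10, shUHRF1 libraries had less RNA of RAET1E, RAET1G, RAET1L and ULBP2 and more of MICB. Of the 8 ligands, 1 was called higher and 5 lower (edgeR quasi-likelihood test, Benjamini-Hochberg adjusted p under 0.05 over 16060 genes). Over all genes tested, 18.8% were called higher and 20.0% lower. The median log2 fold change of the 8 ligands was −1.09, against 0.001 over all genes. For all 8 ligands the 3 shUHRF1 libraries lay wholly above or wholly below the 3 scramble libraries, as they did for 46.9% of all genes tested. All 8 ligands passed the filter on low counts, but ULBP1 did so only through its level in Kyse410. It is 1 of the 5 called lower, and it is also in the median and among the ligands without overlap. Its values in either line's comparison are given as a description with no p-value.

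**Figure D1:**
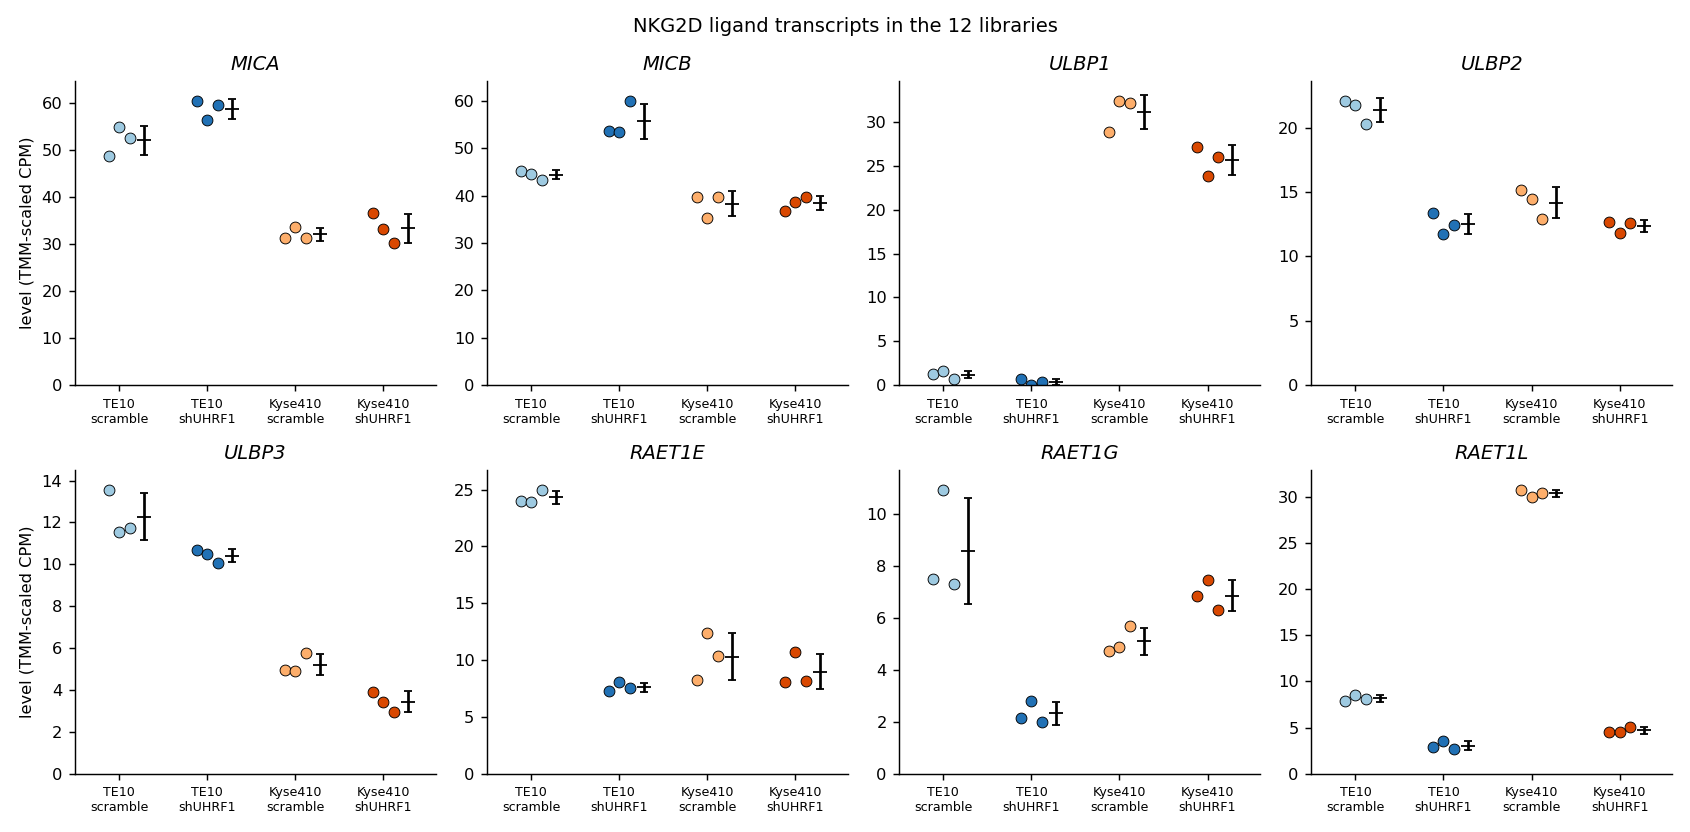
Levels of the 8 NKG2D ligand transcripts, in TMM-scaled CPM (vertical axes, each from 0), in the 3 libraries of each group (points) with the mean and SD beside them. RAET1L stood near 30 CPM in the Kyse410 scramble libraries and at 8.56 CPM or lower in every other library, ULBP1 was at 1.55 CPM or lower in TE10, and the MICA and MICB points of the Kyse410 groups overlap.

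The lowered genes in TE10 differed in size. RAET1G stood at 7.50, 10.9 and 7.31 CPM in the scramble libraries and at 2.16, 2.81 and 1.99 CPM with shUHRF1. It was 3.67-fold lower, a log2 fold change of −1.88 ± 0.227 (SE, adjusted p = 1.28e-09, edgeR). The second scramble library was the highest, and the lowest scramble library was still well above every shUHRF1 library. RAET1E, which encodes a ligand with a transmembrane segment, also had a wide gap between the groups. Its scramble libraries were at 24.0, 23.9 and 25.0 CPM and its shUHRF1 libraries at 7.25, 8.05 and 7.56 CPM. It was 3.19-fold lower (log2 −1.67 ± 0.142, adjusted p = 2.79e-14, edgeR).

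RAET1L, the gene behind the choice of the family, also fell in this line. Its scramble libraries were at 7.88, 8.56 and 8.05 CPM and its shUHRF1 libraries at 2.93, 3.58 and 2.65 CPM. The change was 2.66-fold (log2 −1.41 ± 0.187, adjusted p = 1.32e-08, edgeR). ULBP2, a lipid-anchored ligand, had the highest level per length in the cluster in the scramble libraries of this line. It went from 22.1, 21.8 and 20.3 CPM to 13.4, 11.8 and 12.5 CPM. This was a 1.70-fold fall (log2 −0.77 ± 0.119, adjusted p = 4.99e-07, edgeR), with a wide gap between the groups. ULBP3 moved least in the cluster, from 13.6, 11.5 and 11.8 CPM to 10.7, 10.5 and 10.1 CPM. Its log2 fold change of −0.23 ± 0.15 did not pass the test (adjusted p = 0.227, edgeR), although no library overlapped.

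ULBP1 was close to the detection limit in TE10. Its scramble libraries held 10, 13 and 7 reads and its shUHRF1 libraries 5, 0 and 3 reads, that is 30 against 8 reads in all. The fitted log2 fold change was −1.73 ± 0.527. Leaving out shUHRF1 replicate 2, the library with no read, gave −1.15 and ended the call, and leaving out shUHRF1 replicate 1 gave −2.48.

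The MHC-encoded pair did not follow the cluster in TE10. MICB rose from 45.2, 44.6 and 43.3 CPM to 53.7, 53.4 and 60.0 CPM, a 1.25-fold rise (log2 0.33 ± 0.0747, adjusted p = 0.000332, edgeR). Every shUHRF1 library was above every scramble library. MICA went from 48.7, 54.8 and 52.5 CPM to 60.4, 56.4 and 59.6 CPM, again without overlap. Its log2 fold change of 0.17 ± 0.0741 missed the threshold (adjusted p = 0.0558, edgeR). It passed without the second scramble library (0.21, adjusted p = 0.0445), without the second shUHRF1 library (0.20, 0.0463), with RLE scaling (0.20, 0.0288) and when only the TE10 libraries were fitted (0.17, 0.0484).

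In Kyse410, RAET1L was the member with the largest change and the other ligands moved far less. RAET1L stood at 30.8, 30.0 and 30.4 CPM in the scramble libraries and at 4.47, 4.51 and 5.10 CPM with shUHRF1. It was 6.50-fold lower (log2 −2.70 ± 0.127), and the spread within each group was small against the gap. ULBP3 went from 4.96, 4.90 and 5.78 CPM to 3.92, 3.44 and 2.93 CPM (log2 −0.59 ± 0.189). The ULBP1 libraries, at 28.9, 32.4 and 32.2 CPM with scramble, were at 27.2, 23.8 and 26.0 CPM with shUHRF1 (log2 −0.28 ± 0.103). Neither of these genes had overlapping groups. RAET1G went the other way, from 4.71, 4.90 and 5.69 CPM to 6.84, 7.46 and 6.29 CPM (log2 0.44 ± 0.183), also without overlap.

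The remaining ligands of Kyse410 were nearly level. ULBP2 stood at 15.2, 14.5 and 12.9 CPM with scramble and at 12.7, 11.8 and 12.6 CPM with shUHRF1 (log2 −0.20 ± 0.116). Its groups met without overlapping. RAET1E was at 8.21, 12.3 and 10.3 CPM and at 8.03, 10.7 and 8.14 CPM (log2 −0.17 ± 0.143). MICA was at 31.3, 33.7 and 31.2 CPM and at 36.5, 33.3 and 30.2 CPM (log2 0.06 ± 0.0792). MICB was at 39.7, 35.3 and 39.8 CPM and at 36.8, 38.6 and 39.7 CPM (log2 −0.00 ± 0.0741). The groups of RAET1E, MICA and MICB overlapped.

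By the same rule as in TE10, 1 ligand, RAET1G, was called higher in Kyse410 and 3, ULBP1, ULBP3 and RAET1L, were called lower. Over all genes tested 22.6% were called higher and 26.7% lower, and 5 of the 8 ligands had groups that did not overlap, against 55.6% of all genes. Nothing is read from these counts, since a member of the list was chosen on this comparison. The median log2 fold change was −0.19 over the ligands and −0.025 over all genes. DESeq2 called 2 of the 8 ligands in place of 4, leaving out RAET1G and ULBP1. The call of RAET1G was also lost with no filter on low counts (log2 0.45), without Kyse410 scramble replicate 1 (log2 0.38) or 2 (0.41) and without Kyse410 shUHRF1 replicate 1 (0.44) or 2 (0.39). That of ULBP1 was lost without scramble replicate 2 (−0.25) or 3 (−0.26) and without shUHRF1 replicate 2 (−0.20).

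**Figure D2:**
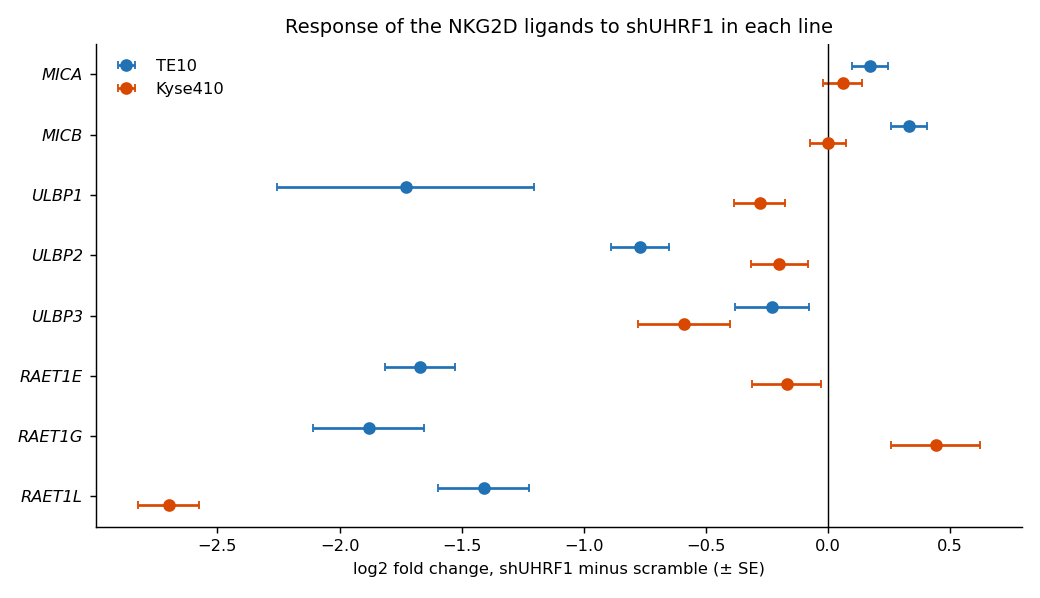
Log2 fold change of each ligand with shUHRF1 against scramble (horizontal axis, with the SE of the fit) in TE10 and in Kyse410, 3 libraries per group. In TE10, RAET1E, RAET1G, RAET1L and ULBP1 lie between −1.41 and −1.88, whereas in Kyse410 RAET1L lies at −2.70 and the other ligands between −0.59 and 0.44.

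The responses of the lines were set against each other as the Kyse410 log2 fold change minus that of TE10. By the rule used above, 6 of the 8 ligands were called for this difference, in a table where 38.9% of all genes were. The count contains the Kyse410 response on which the family was chosen, so nothing is read from it. RAET1G had the widest gap, 2.31 ± 0.294, with a fall in TE10 and a higher level in Kyse410. RAET1E differed by 1.5 ± 0.204 and ULBP1 by 1.45 ± 0.542, both through a larger fall in TE10. Without TE10 shUHRF1 replicate 2 the ULBP1 difference was 0.87. It was also no longer called without TE10 scramble replicate 1 (1.39) or 2 (1.21) or TE10 shUHRF1 replicate 3 (1.56). The ULBP2 difference was 0.56 ± 0.167. RAET1L differed in the opposite sense, by −1.29 ± 0.246, with the larger fall in Kyse410, and MICB by −0.33 ± 0.105. MICA (−0.11 ± 0.108) and ULBP3 (−0.36 ± 0.242) were not called.

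With the scramble hairpin the lines differed in the levels of the ligands. In the scramble libraries 2 ligands, ULBP1 and RAET1L, were higher in Kyse410 and the other 6 were higher in TE10. None had overlapping groups. All 8 passed the threshold, but RAET1L, whose Kyse410 level entered the choice of the family, and ULBP1, which passed the filter only through Kyse410, are not counted as test results. Of all genes tested 36.7% were called higher and 37.1% lower in Kyse410, and 76.1% did not overlap, so a gene called here is the ordinary case. ULBP1 was 26.3-fold higher in Kyse410, at 31.2 ± 1.97 CPM against 1.19 ± 0.411 CPM (SD, n = 3; log2 4.71 ± 0.19 SE). RAET1L was 3.72-fold higher in Kyse410, at 30.4 ± 0.404 CPM against 8.16 ± 0.352 CPM (SD, n = 3). Neither value has a p-value, for the reasons given above.

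Among the genes lower in Kyse410, RAET1E and ULBP3 showed the largest differences. RAET1E was at 10.3 ± 2.07 CPM against 24.3 ± 0.597 CPM in TE10 (SD, n = 3; log2 −1.25, adjusted p = 1.06e-12, edgeR). ULBP3 was at 5.21 ± 0.493 CPM against 12.3 ± 1.12 CPM (log2 −1.23, adjusted p = 1.21e-09, edgeR). RAET1G differed by −0.75 (adjusted p = 0.000286), MICA by −0.70 (1.15e-11) and ULBP2 by −0.59 (5.45e-06) on the log2 scale in the same edgeR test. The MICB difference was small, −0.21 ± 0.0751 (adjusted p = 0.0114, edgeR), and was not called with DESeq2 (−0.18, 0.051), with library totals as the only scaling (−0.11, 0.17) or without Kyse410 scramble replicate 2 (−0.16, 0.0828). The baseline comparison uses the same scramble libraries as the knockdown comparisons, so no relation between them was read.

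Ordered over the 4 groups, the ligands followed several profiles. RAET1L ran from Kyse410 scramble through TE10 scramble and Kyse410 shUHRF1 to TE10 shUHRF1, with each neighbouring pair of groups separate. ULBP1 and ULBP3 were also separate at every step, ULBP1 led by the Kyse410 groups and ULBP3 by the TE10 groups. MICA and MICB were led by TE10 shUHRF1, then TE10 scramble, and their Kyse410 groups overlapped. ULBP2 and RAET1E were highest in TE10 scramble, followed by Kyse410 scramble, and their neighbouring groups below that overlapped. RAET1G was highest in TE10 scramble, which overlapped with Kyse410 shUHRF1, and lowest in TE10 shUHRF1.

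Per kilobase of exon, which allows the ligands to be compared with each other, the make-up of the ligand RNA pool differed between the groups. In TE10 scramble libraries MICA was the most abundant ligand, with 25.3% ± 1.34 of the summed ligand level (SD, n = 3). ULBP2 and MICB followed with 18.4% each, and ULBP1 was last with 0.438%. With shUHRF1 in this line MICA made up 34.8% ± 0.666 and MICB 28.1% ± 1.57. In Kyse410 scramble libraries RAET1L led with 27.5% ± 0.527, ahead of MICB (16.6% ± 1.15) and MICA (16.3% ± 0.704), whose shares overlapped within their SD. With shUHRF1 its share was 5.86% ± 0.575, the sixth of 8, and MICA (23.4% ± 1.66) and MICB (23.0% ± 1.45) led. MICA and MICB thus held the top places in both shUHRF1 groups.

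The summed level of all 8 ligands, in CPM per kilobase, was 86.3 ± 2.48 in TE10 scramble and 70.9 ± 1.38 in TE10 shUHRF1 (SD, n = 3). In Kyse410 it was 82.3 ± 0.62 with scramble and 59.6 ± 1.47 with shUHRF1. The ULBP and RAET1 part went from 48.6 ± 1.91 to 26.3 ± 0.813 in TE10 and from 55.2 ± 0.777 to 31.9 ± 0.672 in Kyse410. The MICA and MICB part was 37.7 ± 1.17 and 44.5 ± 1.85 in TE10, and 27.1 ± 0.335 and 27.7 ± 0.807 in Kyse410. The ULBP and RAET1 genes accordingly made up 56.3% ± 1.08 of the sum in TE10 scramble and 37.2% ± 1.56 in TE10 shUHRF1, against 67.1% ± 0.53 and 53.6% ± 0.258 in Kyse410. In TE10 the lower sum was spread over RAET1E, RAET1G, RAET1L and ULBP2. In Kyse410 most of it was RAET1L, which went from 22.6 ± 0.3 to 3.49 ± 0.262. A sum of RNA levels is a description and does not give the amount of ligand on the surface.

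**Figure D3:**
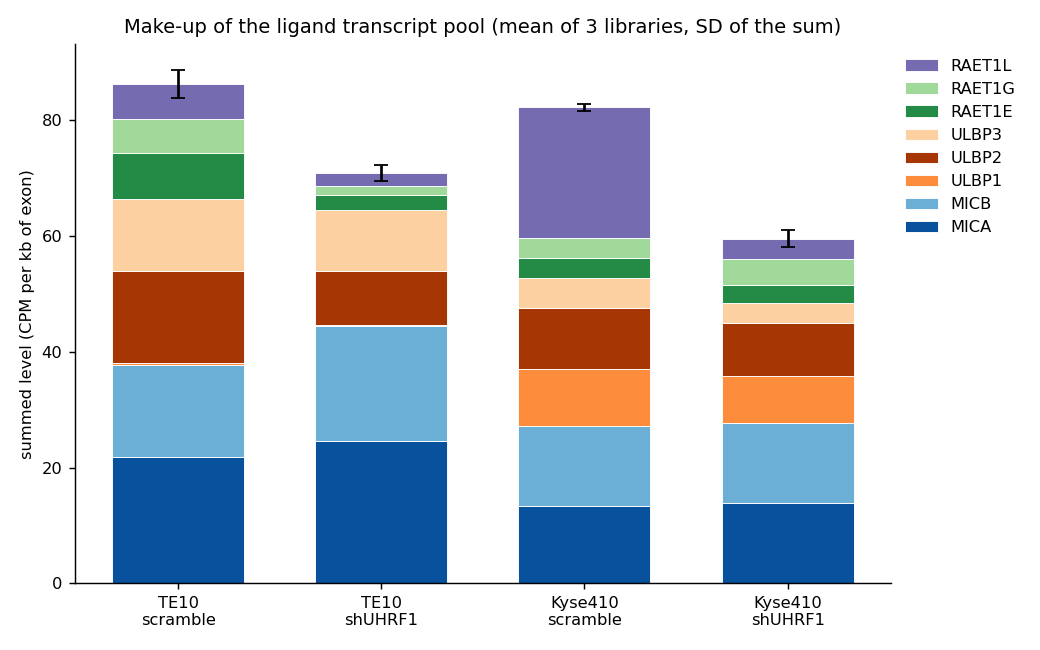
Make-up of the summed ligand level in each group, in CPM per kilobase of exon (vertical axis, from 0), as the mean of 3 libraries per ligand (coloured segments) with the SD of the sum (bars). RAET1L is the largest segment in Kyse410 scramble (22.6) and among the smaller ones elsewhere, while ULBP1 is visible in Kyse410 only.

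The ligands share sequence, which limits how well reads can be assigned. Of the 50-base words in the RAET1L transcripts of GENCODE 29, 31.5% occur in another gene, mainly in ULBP2 (29.5%) and RAET1G (10.9%). For ULBP2 the share is 32.2%, for RAET1G 18.3%, for ULBP3 12.4% and for ULBP1 6.9%, and for MICA and MICB it is 2.6% and 2.9%. In Kyse410, where RAET1L was 6.50-fold lower, its nearest relative ULBP2 had a log2 fold change of −0.20 and RAET1G one of 0.44. RAET1K, a pseudogene in the cluster that shares words with ULBP1 and ULBP3, fell in TE10 (log2 −1.19 ± 0.33, adjusted p = 0.00289, edgeR). Its level in Kyse410 went from 7.28 ± 0.528 to 3.55 ± 0.978 CPM (SD, n = 3). RAET1E shares 33.0% of its words with a read-through transcript, AL355312.5, whose identifier is not among those counted. An antisense gene, RAET1E-AS1, listed under 2 identifiers, covers 9.3% of the RAET1G exon bases and, under 1 of them, 2.3% of those of RAET1E. Its identifiers had 7 to 44 and 110 to 316 reads per library. The strand setting of the counting is not given in the sources used here, so reads of these genes in the overlap cannot be told apart.

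Next to the cluster the nearest tested genes had different responses. RAET1E-AS1, under the identifier ENSG00000223701 with 7 to 44 reads per library, fell in TE10 (log2 −1.49 ± 0.311, adjusted p = 0.000106, edgeR). It was at −0.57 in Kyse410, and its exons overlap those of RAET1E and RAET1G as given above. Under its other identifier it had more reads, 161, 212 and 198 in TE10 scramble and 157, 110 and 124 in TE10 shUHRF1 libraries before scaling. No fold change is given for that identifier, so the stated fall is that of the first, and nothing is said of a change under the second. LRP11, on the RAET1E side, fell in TE10 (log2 −0.70 ± 0.0591, adjusted p = 2.41e-14, edgeR) and was at 0.20 in Kyse410. PCMT1, a protein repair methyltransferase gene beyond it, stood at 0.05 in TE10 (adjusted p = 0.534, edgeR) and −0.21 in Kyse410. On the ULBP3 side PPP1R14C, an inhibitor of protein phosphatase 1, was at −0.39 in TE10 (adjusted p = 0.0354, edgeR) and −0.79 in Kyse410. The TE10 call of PPP1R14C was lost with DESeq2 (−0.37) or no filter (−0.41) and when any 1 of 4 libraries was left out, with values down to −0.29 without TE10 shUHRF1 replicate 1 or 2, −0.33 without TE10 scramble replicate 2 and −0.41 without TE10 scramble replicate 1. PLEKHG1 stood at −0.69 in TE10 (adjusted p = 0.112, edgeR) and at 0.56 in Kyse410, and it passed in TE10 without scramble replicate 3 (−0.97) or shUHRF1 replicate 2 (−1.10). MTHFD1L, an enzyme of mitochondrial folate metabolism, stood at −0.02 (adjusted p = 0.823, edgeR) and −0.46. Around MICA and MICB, HLA-B fell in TE10 (−0.39 ± 0.0757, adjusted p = 3.79e-05, edgeR) and was at 0.20 in Kyse410. Of the other tested neighbours of that pair, DDX39B (−0.06), ATP6V1G2 (0.04), DDX39B-AS1 (0.77) and HCG27 (−0.59) did not pass in TE10, with adjusted p-values of 0.37, 0.86, 0.179 and 0.197 in edgeR. HLA-C (−0.15) and the non-coding gene HCP5 (−0.58), which overlaps 2.6% of the MICA exon bases, were called lower in TE10 (adjusted p = 0.0267 and 0.0411, edgeR). Leaving out 1 library ended the call of HLA-C for 4 of the 6 libraries, scramble replicates 2 and 3 and shUHRF1 replicates 1 and 3 (−0.10 to −0.15), and that of HCP5 for 5 of them, every one except the first shUHRF1 library (−0.48 to −0.63). DESeq2 called neither (−0.12 and −0.56), nor was HLA-C called with RLE scaling (−0.12) or HCP5 with no filter (−0.60) or only the TE10 libraries (−0.58).

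**Figure D4:**
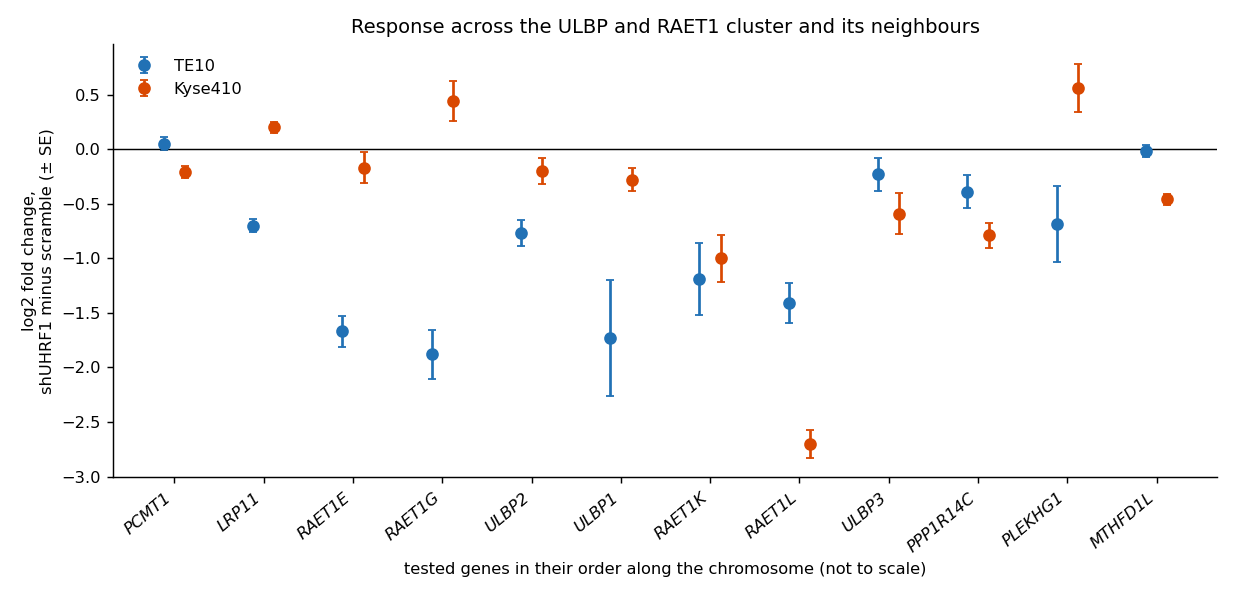
Log2 fold change with shUHRF1 against scramble (vertical axis, with the SE of the fit) of the ULBP and RAET1 genes, the pseudogene RAET1K and the nearest tested neighbours, in chromosomal order without scale and without the antisense gene RAET1E-AS1, in TE10 and Kyse410. In TE10 the values from LRP11 to RAET1L lie between −0.70 and −1.88, and in Kyse410 RAET1L at −2.70 stands beside ULBP3 at −0.59 and RAET1K at −1.0.

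Genes that act in the release of ligands from the cell surface moved in both directions. Of 8 listed, 6 were tested, and 1 was called higher and 1 lower in TE10 (all genes 18.8% and 20.0%), with a median log2 fold change of 0.04. ADAM10, a sheddase of MICA and MICB, rose there (0.24 ± 0.0547, adjusted p = 0.000351, edgeR). TIMP3, an inhibitor of such proteases, fell (−0.46 ± 0.053, adjusted p = 4.08e-10, edgeR). ADAM17 (0.04), ADAM9 (0.02) and PDIA6, a disulfide isomerase used in MICA shedding (0.05), did not pass, with adjusted p-values of 0.643, 0.704 and 0.408 in edgeR. MMP14, a membrane protease, stood at 0.683 CPM in TE10 scramble and had a log2 fold change of 1.08 ± 0.459. Without TE10 scramble replicate 1 the value was 1.64. MMP14 is among the 6 tested and was not called in TE10. Like ULBP1, it passed the filter on low counts only through Kyse410. Its TE10 values are therefore a description with no p-value. In Kyse410 1 of the 6 was called higher and 3 lower (all genes 22.6% and 26.7%), and the values were 2.0 for MMP14, −0.35 for TIMP3, −0.32 for ADAM17, −0.27 for ADAM9, 0.07 for ADAM10 and 0.09 for PDIA6.

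Known regulators of the ligands were called in both directions in TE10. All 21 listed were tested, and 1 was called higher, 6 lower and 14 neither, with a median of −0.06. Over all genes 18.8% were called higher and 20.0% lower. E2F1, a cell cycle transcription factor that can raise ligand transcription, rose (0.63 ± 0.0748, adjusted p = 7.73e-10, edgeR). ATM, a kinase of the DNA damage response that induces ligands, fell (−0.46 ± 0.0677, adjusted p = 2.01e-07, edgeR). MYC was called lower at −0.09 (adjusted p = 0.033, edgeR), but the call was lost with DESeq2 or RLE scaling (−0.07 with either) and when any 1 of 5 of the 6 TE10 libraries was left out, all except shUHRF1 replicate 2, with values from −0.07 to −0.09. ATF4 and RBM4, factors tied to ULBP1 expression, and HSF1, the heat shock factor, stood at −0.00, −0.11 and −0.07 and did not pass (adjusted p = 0.995, 0.759 and 0.216, edgeR). In Kyse410 8 of the 21 were called higher and 10 lower, against 22.6% and 26.7% of all genes, with a median of −0.13. E2F1 was at 0.62 there, ATF4 at −0.47, RBM4 at −0.58, HSF1 at −0.36, MYC at −0.50 and ATM at −0.18.

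Other ligands that activate natural killer cells also moved in both directions. Of 10 listed, 8 were tested, and in TE10 2 were called higher and 2 lower (all genes 18.8% and 20.0%), with a median of −0.04. ICAM1, an adhesion ligand of LFA-1, went from 1.45 ± 0.29 to 5.51 ± 0.876 CPM in TE10 (SD, n = 3; log2 1.92 ± 0.261 SE, adjusted p = 2.44e-08, edgeR) and was at 0.52 in Kyse410. PVR, a ligand of DNAM-1 and TIGIT, rose in TE10 (0.48 ± 0.0488, adjusted p = 7.79e-12, edgeR) and was at −0.16 in Kyse410. CLEC2B, the ligand of NKp80, fell in TE10 (−0.68 ± 0.108, adjusted p = 8.75e-07, edgeR) and was at −0.74 in Kyse410. NECTIN2, a second DNAM-1 ligand, was at 0.16 in TE10 (adjusted p = 0.0509, edgeR) and at 0.13 in Kyse410. It passed in TE10 with DESeq2 or RLE scaling (0.18 with either) and without scramble replicate 3 (0.19). NCR3LG1, which encodes the NKp30 ligand B7-H6, was at −0.12 (adjusted p = 0.471, edgeR) and −0.52. In Kyse410 2 of the 8 were called higher and 4 lower (all genes 22.6% and 26.7%), with a median of −0.09.

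Of 13 genes for inhibitory ligands, 12 were tested, and in TE10 1 was called higher and 7 lower (all genes 18.8% and 20.0%), with a median log2 fold change of −0.31. The 7 include HLA-C and HLA-E, whose calls were each lost when certain single libraries were left out. CDH1, E-cadherin and a ligand of KLRG1, rose in TE10 (1.20 ± 0.0565, adjusted p = 3.06e-24, edgeR) and was at 0.79 in Kyse410. CDH2, N-cadherin, fell in TE10 (−0.85 ± 0.108, adjusted p = 4.27e-09, edgeR) and was at −1.04 in Kyse410. HLA-E, the ligand of the NKG2A receptor, was called lower in TE10 at −0.15 (adjusted p = 0.0119, edgeR), with the call lost without TE10 scramble replicate 3 (−0.13) or TE10 shUHRF1 replicate 2 (−0.09), and was at −0.00 in Kyse410. In Kyse410 3 of the 12 were called higher and 3 lower (all genes 22.6% and 26.7%), with a median of −0.00.

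Over the 12 libraries, the log2 levels of the ligands varied together to different degrees, as a description with no test and with 4 groups behind the 12 points. RAET1E and ULBP2 had a Pearson correlation of 0.91, MICA and MICB one of 0.85, and RAET1L with each other ligand stayed between −0.62 and 0.58. MICA and ULBP1 ran opposite at −0.97, with the lines at the ends of the scale. Among 10965 tested genes at a mean of at least 5 CPM, those whose profile was closest to that of RAET1L were MAPK1IP1L (0.993), ISG15, an interferon-induced ubiquitin-like protein (0.987), FAM53C (0.985), UST (0.985) and PTPRR (0.984). Their Kyse410 log2 fold changes ranged from −0.70 for MAPK1IP1L to −1.90 for UST, all smaller in size than that of RAET1L. For MICB, the most abundant of the other ligands by CPM over the 12 libraries, they were PSPC1 (0.973), CCND1, cyclin D1 (0.971), NDUFAB1 (0.967), HMOX1, haem oxygenase 1 (0.967), and CAPN15 (0.965).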

How the data were processed

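Polyadenylated RNA was sequenced from 12 libraries, 3 in each of 4 groups. The deposited values are raw read counts per gene and library. Per the submitters' processing notes, bcl2fastq 2.19, HISAT2 2.1.0, HTSeq 0.9.1, DESeq2 and GRCh37.p13 were used. The sources used here do not give the strand setting or annotation release. Reads assigned to no feature were 42.88 to 44.66% of each library and were left out. Of 57820 identifiers 51996 matched a symbol table, and the identifier of UHRF1 was matched by hand.

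Counts were filtered with filterByExpr (16060 genes kept), scaled by TMM and fitted once over all 12 libraries with edgeR 4.0.16 (quasi-likelihood, 8 residual degrees of freedom, R 4.3.3), tested on simulated counts. CPM are counts relative to the TMM-scaled total. Levels per kilobase used GENCODE 29 exon lengths. Alternatives were DESeq2 1.42.0, RLE scaling, library totals, no filter, no mitochondrial genes, only the groups compared, a replicate block and each library left out. Between libraries of a group, chi-square per degree of freedom was 1.57 to 2.92.

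The members and gene lists were chosen with earlier results of these data known. The genes named are the 8 ligands, a fixed set of shedding, regulator and ligand genes, the 2 called list members with the smallest adjusted p per line, the 3 nearest tested neighbours per side, and the 5 genes most correlated with RAET1L and MICB.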

Additional observations from a re-analysis of the deposited data

Results flagged for a closer look

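The interaction term of the edgeR fit, the difference between the lines in the response to shUHRF1, was called for 6 of the 8 ligands. Of all genes 38.9% were called. The Kyse410 log2 fold change minus that of TE10 was −0.33 for MICB, 1.45 for ULBP1, 0.56 for ULBP2, 1.5 for RAET1E, 2.31 for RAET1G and −1.29 for RAET1L. These values contain the Kyse410 response on which the family was chosen, and ULBP1 passed the filter on low counts only through Kyse410. All 6 are given as a description and not as a test result. The ULBP1 call was lost without any 1 of 4 TE10 libraries.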

How the results depend on the processing

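Of the ligand counts, 1 moved by over 1.5 times: in Kyse410 it was 4, against 2 with DESeq2 and 2 to 4 with single libraries left out. In TE10 it was 6 to 7, for the line difference 5 to 6 and for the baseline 7 to 8 with single libraries left out. Values that did not pass the test changed sign, most of them near 0. For Kyse410 MICB these were 0.01 (DESeq2, RLE scaling, no filter), 0.02 (library totals, only the groups compared), 0.00 (no mitochondrial genes, replicate block) and −0.05 to 0.03 with single libraries left out, and for MICA −0.01 to 0.12. HLA-E in Kyse410 was at 0.01 (DESeq2, RLE scaling, no filter), 0.02 (library totals, only the groups compared), 0.00 (no mitochondrial genes) and −0.04 to 0.03. ATF4 in TE10 was at 0.02 (DESeq2, RLE scaling), 0.00 (replicate block) and −0.02 to 0.03, and MTHFD1L at 0.00 (DESeq2, RLE scaling) and −0.07 to 0.06. With single libraries left out, RBM4 in TE10 ranged from −0.25 to 0.15, PCMT1 from −0.03 to 0.12, ATP6V1G2 from −0.10 to 0.16 and DDX39B-AS1 in Kyse410 from −0.60 to 0.45. In the main fit RBM4 in TE10 (−0.11) and DDX39B-AS1 in Kyse410 (−0.32) were not near 0. The 0.45 came without Kyse410 scramble replicate 1. The cause was not tested. Fitting only the TE10 groups gave no value for ULBP1 and MMP14, which the filter then removed. Another scaling moved the median of all genes by at most 0.095.

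Libraries with the same number in shUHRF1 and scramble, or in the lines, were not paired by the labels, and their deviations correlated at −0.012 to 0.037. With the number as a replicate block 6346 genes were called in TE10, 7993 in Kyse410, 6368 for the difference and 11837 at baseline, and the ligand counts were 6, 4, 6 and 8. Among the genes named, NECTIN2 in TE10 passed with the block (0.16, adjusted p = 0.047, edgeR) and not without it. ULBP1 in TE10 is limited by depth, at no more than 13 reads per library.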
